A study of Mus musculus with 18 samples.

Results

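The Cyp3a family of cytochrome P450 enzymes was followed in mouse liver through 6 of its genes, Cyp3a11, Cyp3a13, Cyp3a25, Cyp3a41a, Cyp3a41b and Cyp3a44. Every array probe whose annotation names at least 1 of these genes was taken, which gave 6 of the 34472 probes on the array, for 6 of the 23981 gene symbols named there. Cyp3a11 (probe 17455175), Cyp3a44 (17455159), Cyp3a25 (17455193) and Cyp3a13 (17454193) each had 1 probe of their own. The other 2 probes, 17455127 and 17455143, are annotated to Cyp3a41a, Cyp3a41b, Cyp3a11 and Cyp3a44 together. Cyp3a41a and Cyp3a41b were therefore read only through these shared probes, whose signal cannot be divided among the 4 genes. Each probe was described on its own.

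All animals were male C57BL6 mice, and no genetic change is named in the labels. They received their diets from 6 to 18 weeks of age, for 12 weeks, with fat supplying 10% of energy in the low-fat and 45% in the high-fat diet. The low-fat groups were the diet alone (LFD), the diet with PFOS (L-PFOS) and the diet with PFNA (L-PFNA), and the high-fat groups were likewise HFD, H-PFOS and H-PFNA, each with 3 biological replicates and 1 array per replicate. PFNA (perfluorononanoic acid) and PFOS (perfluorooctane sulfonic acid) are persistent surfactants with perfluorinated chains of the same length, on which PFNA carries a carboxylic and PFOS a sulfonic acid group. No source used here gives their doses. The study asked how the diet shapes the fatty liver that these compounds induce, and the Cyp3a probes were compared between each compound and its diet control, between the compounds and between the diets.

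Cyp3a enzymes are heme proteins of the endoplasmic reticulum that oxidise many drugs, steroids and bile acids, using electrons passed on by cytochrome P450 reductase and cytochrome b5. Their genes are classical targets of the nuclear receptors PXR (Nr1i2) and CAR (Nr1i3), which bind DNA as partners of RXR at repeats of a hexamer and respond to foreign compounds, bile acids and steroids. Cyp3a11 is the main Cyp3a enzyme of the adult mouse liver, Cyp3a41 and Cyp3a44 are known as female-predominant liver forms, and Cyp3a13 is also expressed in the intestine.

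In the RefSeq gene order of chromosome 5, Cyp3a41b, Cyp3a41a, Cyp3a44, Cyp3a11 and Cyp3a25 follow one another in a cluster that also holds Cyp3a57, Cyp3a16 and Cyp3a59, while Cyp3a13 lies apart, between Pilrb2 and Gjc3. The 250 bases before the annotated start of 4 of the genes are printed here, because the members of the cluster differed in their response and PXR and CAR act on such regions. They come from RefSeq on build GRCm38.p6, in which all 6 genes were found, and read 5′ to 3′ on the minus strand at chr5:145879855-145880104 for Cyp3a11, chr5:145720137-145720386 for Cyp3a41a, chr5:145805875-145806124 for Cyp3a44 and chr5:146009619-146009868 for Cyp3a25. Capitals mark the hexamer AGGTCA or AGTTCA on either strand, so that TGACCT and TGAACT stand for a hexamer of the opposite strand.
Cyp3a11: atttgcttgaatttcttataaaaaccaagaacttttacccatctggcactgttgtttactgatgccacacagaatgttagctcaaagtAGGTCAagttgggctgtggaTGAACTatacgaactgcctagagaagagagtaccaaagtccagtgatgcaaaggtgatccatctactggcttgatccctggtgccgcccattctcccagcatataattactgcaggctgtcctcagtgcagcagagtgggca
Cyp3a41a: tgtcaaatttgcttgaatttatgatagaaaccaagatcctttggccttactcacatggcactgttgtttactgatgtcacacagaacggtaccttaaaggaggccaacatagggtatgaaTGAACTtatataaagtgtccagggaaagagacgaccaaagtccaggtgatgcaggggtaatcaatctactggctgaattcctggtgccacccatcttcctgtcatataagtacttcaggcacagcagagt
Cyp3a44: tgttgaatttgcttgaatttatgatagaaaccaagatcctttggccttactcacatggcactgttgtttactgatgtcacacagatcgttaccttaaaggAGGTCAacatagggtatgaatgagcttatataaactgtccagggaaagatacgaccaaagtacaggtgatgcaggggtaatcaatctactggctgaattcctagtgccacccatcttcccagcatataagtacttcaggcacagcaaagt
Cyp3a25: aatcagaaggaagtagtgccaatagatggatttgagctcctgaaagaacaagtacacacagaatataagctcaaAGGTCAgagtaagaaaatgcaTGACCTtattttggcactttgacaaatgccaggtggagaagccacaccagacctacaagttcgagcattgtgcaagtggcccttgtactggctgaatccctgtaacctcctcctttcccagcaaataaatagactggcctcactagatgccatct

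The windows of Cyp3a41a and Cyp3a41b were identical at 249 of 250 positions, or 99.6%, and that of Cyp3a44 was 94.4% identical to Cyp3a41a and 94.8% to Cyp3a41b. The Cyp3a11 window shared 71.7% of aligned positions with Cyp3a41a and 71.7% with Cyp3a44, whereas it shared 52.7% with Cyp3a25 and 53.5% with Cyp3a13. Such a hexamer lay in 5 of the 6 windows, against 24.2% of the 32851 RefSeq promoter windows of this length. As several of the 6 windows are near copies, they are not independent, and no enrichment is read from this count. Cyp3a11 held 1 on each strand, at -162 to -157 and -142 to -137 from the start, and Cyp3a25 also held 1 on each strand, at -176 to -171 and -155 to -150. Cyp3a44 held 1 at -150 to -145, and Cyp3a41a and Cyp3a41b each held 1 on the opposite strand at -130 to -125. The Cyp3a13 window held neither sequence. The same hexamers were searched as direct repeats spaced by 3 or by 4 bases and as everted repeats spaced by 6, and no member window held such a pair, which 0.0122%, 0.0244% and 0.00913% of all windows did. Only exact matches of both hexamers were counted, so repeats with a changed base were not looked for. A match is a description of these letters and not of receptor binding, and the hexamers were present before genes that changed and before Cyp3a25.

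The deposited values were read as log2 signal, with array medians between 4.43 and 4.59. On this scale 5 of the 6 Cyp3a probes were among the brighter probes of the array. The mean over 18 arrays exceeded that of 98.9% and 98.8% of all probes for the shared probes, 98.6% for Cyp3a11, 98.2% for Cyp3a13 and 96.8% for Cyp3a25, but only 62.2% for Cyp3a44. Signals of different probes were not compared as amounts of RNA. The first principal component of all probes held 17.9% of the variance and set 5 arrays apart from the other 13. They were the 3 of H-PFOS, the third of L-PFOS and the third of H-PFNA. Differences came from a linear model with limma over all 18 arrays, are given as log2 differences with standard errors (SE), and were called at a Benjamini-Hochberg adjusted p under 0.05 over all probes. The p-values measure the spread between these arrays, and as the samples are bulk liver, fewer cells of a type and less RNA per cell cannot be told apart.

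Cyp3a11 was higher in every exposed liver than in every control liver. Its log2 signal was 9.59, 10.34 and 9.99 in LFD and 10.40, 9.56 and 9.66 in HFD. It was 10.97, 11.48 and 10.92 in L-PFOS, 10.88, 11.51 and 11.03 in L-PFNA, 10.74, 10.85 and 11.09 in H-PFOS, and 11.16, 11.25 and 10.83 in H-PFNA. The lowest exposed array, at 10.74, stood above the highest control, at 10.40, so exposed and control arrays did not overlap. Averaged over both compounds and both diets, Cyp3a11 rose by 1.14 (SE 0.15; limma adjusted p = 2.94e-04), a fold of 2.20. The third arrays of L-PFOS and H-PFNA were the lowest of their groups for Cyp3a11 but lay within the range of the other exposed arrays.

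The shared probes of Cyp3a41a, Cyp3a41b, Cyp3a11 and Cyp3a44 separated exposed from control livers with less spread. Probe 17455127 read 10.44, 10.40 and 10.55 in LFD and 10.64, 9.95 and 10.41 in HFD. It read 11.17, 11.44 and 11.24 in L-PFOS, 11.16, 11.38 and 11.36 in L-PFNA, 11.13, 11.46 and 11.25 in H-PFOS, and 11.33, 11.48 and 11.31 in H-PFNA. The 12 exposed arrays thus lay between 11.13 and 11.48, all above the control range of 9.95 to 10.64, in which the second HFD array was the lowest. Probe 17455143 ran between 9.87 and 10.54 in the controls and between 11.06 and 11.37 in the exposed arrays, again without overlap. Both rose with exposure, by 0.91 (SE 0.094; limma adjusted p = 4.33e-05; fold 1.88) for 17455127 and by 0.93 (SE 0.089; adjusted p = 1.77e-05; fold 1.90) for 17455143. Their signals differed by 0.05 to 0.18 in each of the 18 arrays, so they are close to 1 measurement rather than independent evidence.

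The Cyp3a44 probe was below every array median in 4 of 6 control livers and above the medians in every exposed one. It read 3.73, 3.74 and 4.53 in LFD and 5.09, 3.69 and 3.61 in HFD. It read 5.58, 6.15 and 5.54 in L-PFOS, 5.36, 6.02 and 5.92 in L-PFNA, 5.64, 5.89 and 5.32 in H-PFOS, and 5.51, 6.51 and 5.29 in H-PFNA. The first HFD array, at 5.09, came close to the lowest exposed array, at 5.29, but the groups did not overlap. The difference averaged over both compounds and diets was 1.66 (SE 0.23; limma adjusted p = 4.34e-04). No fold is given, because 4 of the 6 control values lie under the lowest array median and may be background.

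Cyp3a25, next to Cyp3a11 in the cluster, and Cyp3a13, outside it, overlapped between exposed and control livers. The Cyp3a25 signal was 9.63, 9.95 and 9.20 in LFD, 9.87, 9.12 and 9.17 in HFD, 9.67, 10.04 and 9.36 in L-PFOS, 9.40, 9.45 and 9.52 in L-PFNA, 9.60, 10.22 and 9.77 in H-PFOS, and 9.86, 9.46 and 9.19 in H-PFNA. Of its 12 exposed arrays, 2 exceeded the highest control. The Cyp3a13 signal was 10.29, 10.09 and 10.05 in LFD, 9.95, 10.73 and 10.09 in HFD, 10.49, 10.70 and 10.23 in L-PFOS, 10.28, 10.33 and 10.33 in L-PFNA, 9.95, 10.74 and 10.54 in H-PFOS, and 10.56, 10.16 and 10.31 in H-PFNA. Of its exposed arrays, 1 exceeded the highest control, the second HFD array at 10.73. The averaged exposure difference was 0.14 (95% interval -0.17 to 0.45; limma adjusted p = 0.682) for Cyp3a25 and 0.19 (-0.08 to 0.45; adjusted p = 0.478) for Cyp3a13. The 1.14 measured for Cyp3a11 lies outside both intervals.

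Over both compounds and diets, 4 of the 6 Cyp3a probes were called higher and 0 lower, where 2.99% of all probes were called higher. The same 4 had every exposed array above every control array, as 253 probes of the array did (0.734%). The shared probes, close to 1 measurement, are 2 of these 4. The median difference of the 6 probes was 0.92, which lies between the 2 shared probes, beside -0.01 over all probes.

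**Figure D1:**
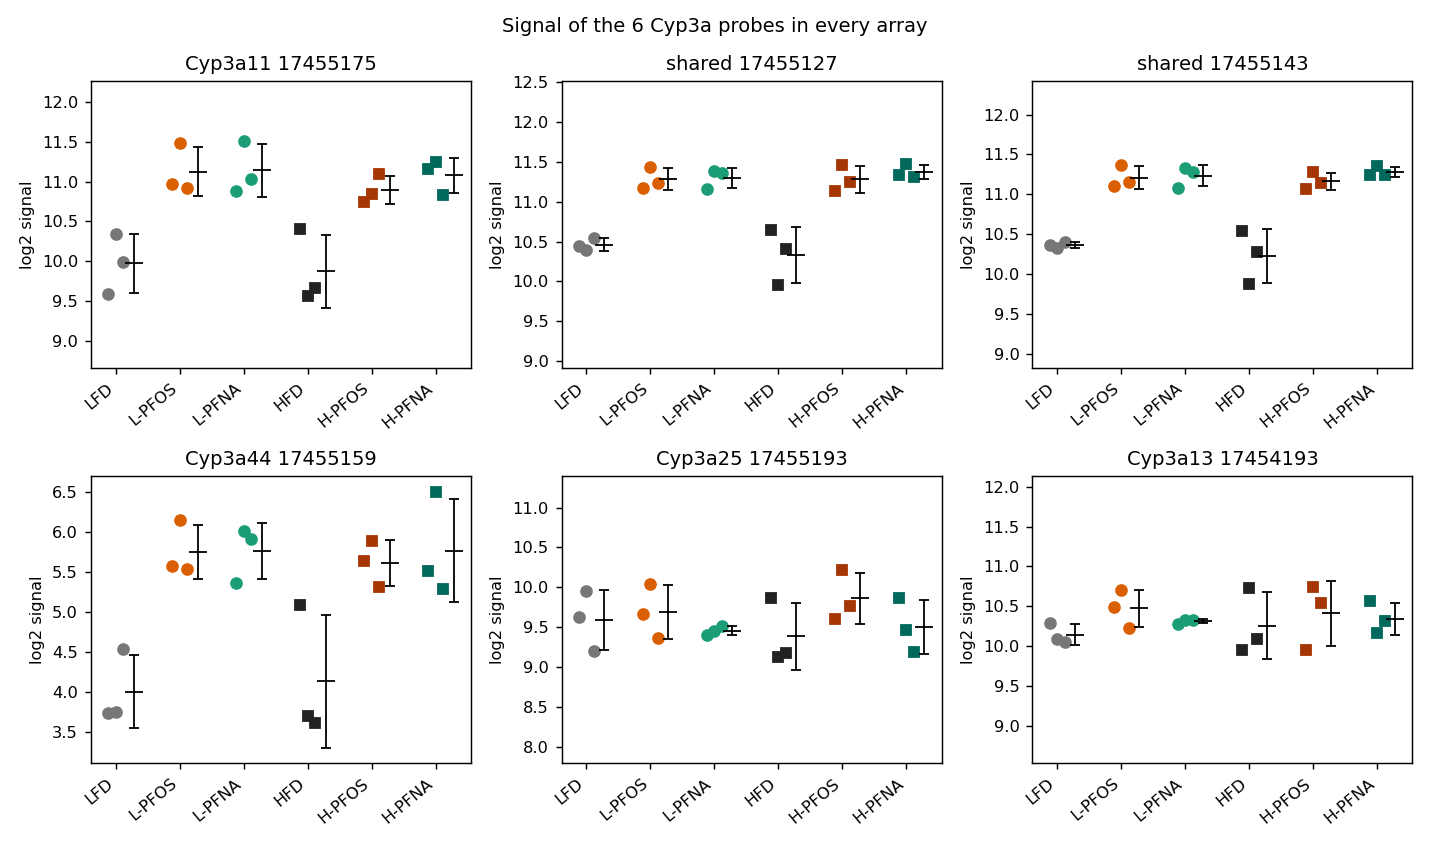
Log2 signal of the 6 Cyp3a probes (vertical axis, each panel with its own offset) in the 6 groups (horizontal axis), 1 point per array, circles for the low-fat and squares for the high-fat diet, with the mean ± SD of 3 arrays beside them. In Cyp3a11, both shared probes and Cyp3a44 all 12 exposed arrays lie above all 6 controls, while Cyp3a25 and Cyp3a13 overlap.

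Each compound was next set against the control of its own diet, where 3 arrays stood against 3. On the low-fat diet 4 Cyp3a probes rose past the threshold under PFOS, where 0.281% of all probes were called higher. The differences were 1.15 for Cyp3a11 (SE 0.24; limma adjusted p = 0.0460), 0.82 for 17455127 (SE 0.15; 0.0321), 0.85 for 17455143 (SE 0.15; 0.0194) and 1.76 for Cyp3a44 (SE 0.37; 0.0470). Under PFNA on the low-fat diet the same 4 probes rose, against 0.374% of all probes called higher. These differences were 1.17 for Cyp3a11 (adjusted p = 0.0324), 0.84 for 17455127 (0.0201), 0.87 for 17455143 (0.0120) and 1.77 for Cyp3a44 (0.0347). The low-fat calls depended on the arrays and the fit. On the compared groups alone 0 of the 4 passed in L-PFOS and 3 in L-PFNA, and after quantile normalization 1 passed in L-PFOS. The L-PFOS count fell from 4 to 0 without any 1 of the LFD arrays or without the first or second L-PFOS array. The L-PFNA count fell to 1 without the first LFD array, to 0 without the second, to 2 without the first L-PFNA array and to 0 without the second or the third. Over all settings in which 1 array was left out, the Cyp3a11 difference under L-PFOS stayed between 0.96 and 1.33.

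On the high-fat diet the shared probes passed the threshold under both compounds in the fit over all 18 arrays, and Cyp3a11 and Cyp3a44 did not. Under PFOS 17455127 rose by 0.95 (limma adjusted p = 0.00935) and 17455143 by 0.93 (0.00744), so 2 of 6 Cyp3a probes were called, where 0.632% of all probes were called higher. Under PFNA they rose by 1.04 (adjusted p = 0.00897) and 1.05 (0.00534), again 2 of 6 probes, where 0.087% of all probes were called higher. As the shared probes are close to 1 measurement, each of these counts of 2 rests on close to 1 result, and no probe of a single Cyp3a gene was called. The Cyp3a11 difference was 1.02 under PFOS (adjusted p = 0.0503) and 1.21 under PFNA (0.0550), and that of Cyp3a44 was 1.49 (0.0596) and 1.64 (0.0983). In each of the 4 exposures the same 4 probes had all 3 exposed arrays above all 3 controls, as 7.58% of all probes did in L-PFOS, 10.1% in L-PFNA, 9.71% in H-PFOS and 6.83% in H-PFNA. The first HFD array was the highest control of its diet for Cyp3a11, Cyp3a44 and both shared probes, and without it 4 probes were called under H-PFOS and 4 under H-PFNA. Fitted on the compared groups alone, none of the 4 probes passed in either exposure, with adjusted p of 0.0724 and 0.0634 for the shared probes in H-PFOS and 0.177 and 0.151 in H-PFNA. With only probes above the median signal, with a trended prior or with array weights, 4 passed in H-PFOS. The H-PFOS count was 1 without the second H-PFOS array, and the H-PFNA count was 1 without the first or the second H-PFNA array. Without the third arrays of L-PFOS and H-PFNA, which stood apart on the first principal component, the counts were 4 in L-PFOS, 4 in L-PFNA, 4 in H-PFOS and 3 in H-PFNA.

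Cyp3a25 and Cyp3a13 were not called in any of these 4 exposures, in limma's fit over all probes. The Cyp3a25 differences were 0.10 in L-PFOS, -0.14 in L-PFNA, 0.48 in H-PFOS and 0.12 in H-PFNA, with adjusted p between 0.414 and 0.924. Those of Cyp3a13 were 0.33, 0.17, 0.15 and 0.09, with adjusted p between 0.560 and 0.935. The median over the 6 Cyp3a probes was 0.83 in L-PFOS, 0.85 in L-PFNA, 0.94 in H-PFOS and 1.04 in H-PFNA, while the median over all probes lay between -0.02 and -0.01. In each exposure the Cyp3a median lay between the 2 shared probes.

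**Figure D2:**
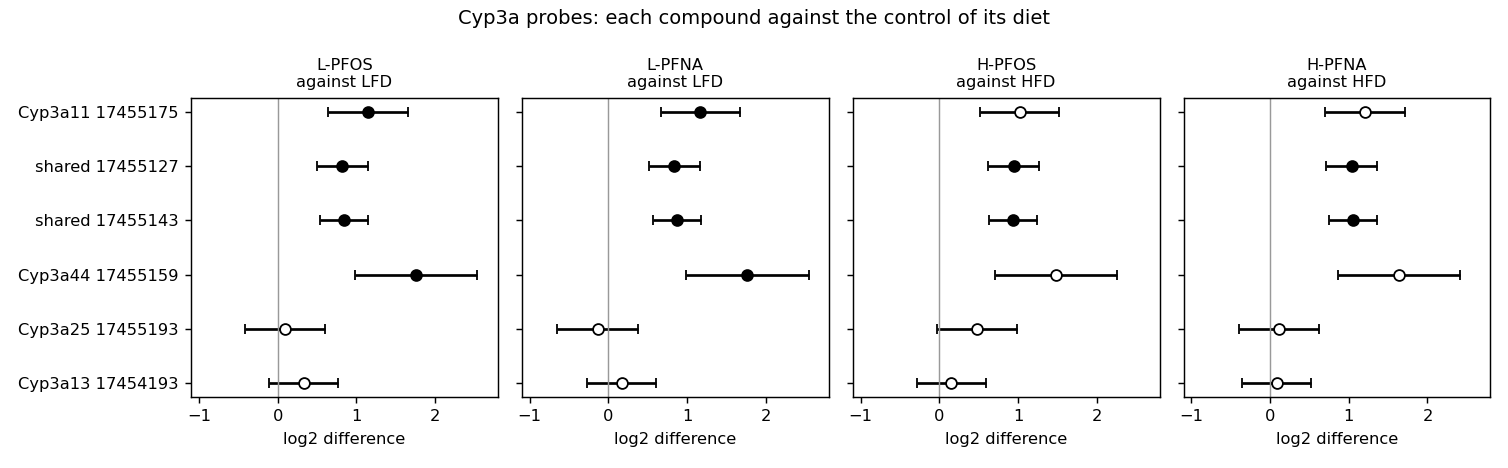
Log2 difference of each Cyp3a probe (rows) for each exposure against its diet control (panels), with 95% confidence intervals as bars, 3 arrays per group, and filled points at a limma adjusted p under 0.05. Filled points are 4 in L-PFOS, 4 in L-PFNA, 2 in H-PFOS and 2 in H-PFNA, and the points of Cyp3a25 and Cyp3a13 stay between -0.14 and 0.48.

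The sizes of the averaged differences can be set side by side as a description, since the probes compared were picked after their values were seen. Within the same arrays, the Cyp3a11 difference exceeded that of its neighbour Cyp3a25 by 0.998 and that of Cyp3a13 by 0.95. The shared probes differed by 0.23 and 0.21 less than Cyp3a11. No such value is given for Cyp3a44, whose control signals may be background.

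**Figure D3:**
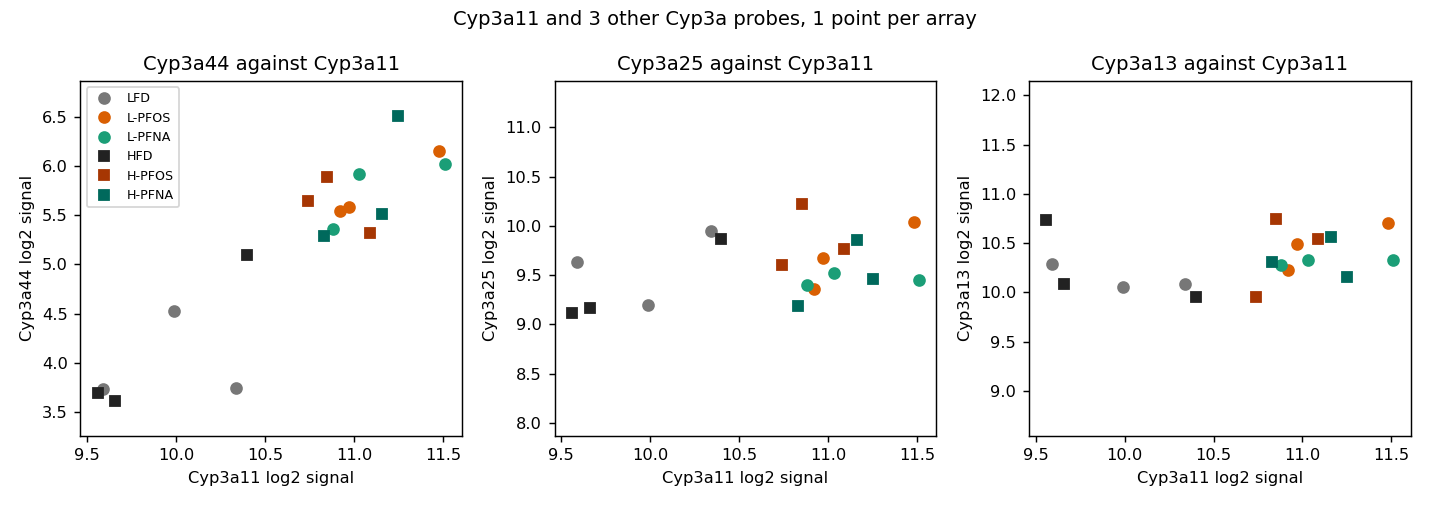
Log2 signal of Cyp3a44, Cyp3a25 and Cyp3a13 (vertical axes) against that of Cyp3a11 (horizontal axes), 1 point per array, circles for the low-fat and squares for the high-fat diet. Exposed arrays lie to the right of the control arrays in each panel, beyond 10.40 for Cyp3a11, and above them only in the Cyp3a44 panel.

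The signals of the 4 probes that rose moved together over the 18 arrays, which share the step between control and exposed groups. Pearson's r was 0.997 between the shared probes, 0.926 and 0.938 between Cyp3a11 and each of them, and 0.917 between Cyp3a11 and Cyp3a44. After subtracting the group means these fell to 0.984, 0.607, 0.662 and 0.642. Cyp3a25 had an r of 0.384 with Cyp3a11 over all arrays and 0.621 after the group means were subtracted, so it was closer to Cyp3a11 among arrays of a group than over all arrays. For Cyp3a13 the same values were 0.249 and -0.125.

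Likeness outside the family was searched only among probes of 1 named gene, without predicted genes, microRNAs, small nucleolar RNAs and olfactory receptors. Of these, the probes most like Cyp3a11 over the 18 arrays were those of Slc35f2 (r = 0.957), a member of a solute carrier family, Adssl1 (0.942), an adenylosuccinate synthetase of purine nucleotide synthesis, and Psmf1 (0.926), a proteasome inhibitor subunit. Slc35f2 also came first for both shared probes (0.963 and 0.968) and for Cyp3a44 (0.932). Its log2 signal ran from 4.69 to 6.17 in the controls and from 7.29 to 7.70 in the exposed arrays, an averaged difference of 2.01. Slc35f2 was picked for its likeness to probes that separate exposed from control arrays. Its own step follows from that choice and is no separate result. The next most like the shared probes was Pla2g6, a calcium-independent phospholipase, with r = 0.939 and 0.950. The best matches were weaker for Cyp3a25 (Abhd15, of the abhydrolase family, 0.812) and Cyp3a13 (Ppm1d, a protein phosphatase, 0.813), which hold no such step to share.

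PFNA and PFOS, which differ in the acid group, were compared within each diet over the 6 probes, and 0 were called in either diet by limma, with 0 at an unadjusted p under 0.05. Of all probes, 0 were called on the low-fat diet and 0.0029% on the high-fat diet. On the low-fat diet PFNA minus PFOS was 0.02 for Cyp3a11 (95% interval -0.49 to 0.52), 0.02 for 17455127 (-0.31 to 0.34), 0.02 for 17455143 (-0.28 to 0.33) and 0.01 for Cyp3a44 (-0.77 to 0.79). On the high-fat diet it was 0.19 (-0.32 to 0.69), 0.09 (-0.23 to 0.42), 0.12 (-0.19 to 0.42) and 0.15 (-0.62 to 0.93), in the same order. Cyp3a25 was lower under PFNA than under PFOS by 0.23 (interval of the difference -0.74 to 0.28) on the low-fat and by 0.36 (-0.87 to 0.15) on the high-fat diet, and neither passed. For the shared probes the intervals leave room for a difference of up to 0.42 between the compounds, less than the 0.82 to 1.05 by which these probes rose, while for Cyp3a44 they are wider. As the doses are not given here, these differences compare the groups as fed.

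The diets alone did not separate the Cyp3a probes either. HFD minus LFD was -0.10 for Cyp3a11 (95% interval -0.61 to 0.41), -0.13 for 17455127 (-0.45 to 0.19), -0.13 for 17455143 (-0.44 to 0.17), 0.13 for Cyp3a44 (-0.65 to 0.91), -0.21 for Cyp3a25 (-0.72 to 0.30) and 0.11 for Cyp3a13 (-0.33 to 0.55). None of the 6 was called by limma, 0 had an unadjusted p under 0.05, and 0.0029% of all probes were called. The interaction, by which the high-fat response exceeded the low-fat response, was -0.13 for Cyp3a11 under PFOS (-0.84 to 0.58) and 0.04 under PFNA (-0.67 to 0.75). For 17455127 it was 0.13 (-0.33 to 0.59) and 0.20 (-0.26 to 0.66), and for Cyp3a44 -0.27 (-1.37 to 0.83) and -0.13 (-1.23 to 0.97). The larger number of calls on the low-fat diet is therefore not shown to be a difference between diets.

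Ordered by group mean, the 4 probes that rose had all 4 exposed groups first and both controls last. The step between the lowest exposed group, H-PFOS in each case, and the higher control was 0.92 for Cyp3a11 (95% interval 0.41 to 1.43), 0.82 for 17455127 (0.49 to 1.14), 0.80 for 17455143 (0.49 to 1.11) and 1.49 for Cyp3a44 (0.71 to 2.26). All other neighbours in these orders differed by at most 0.19, with intervals that include 0. The groups were sorted by these same means and the intervals ignore the sorting, so the gaps are a description and test no order.

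**Figure D4:**
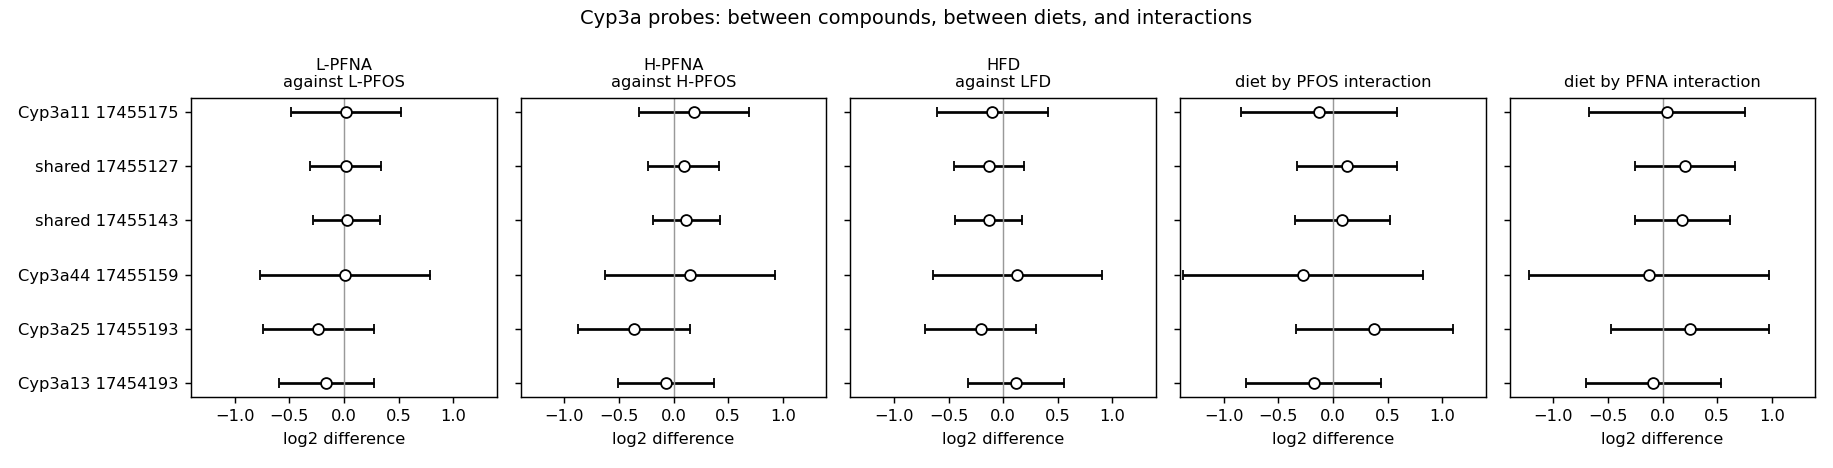
Log2 difference of each Cyp3a probe (rows) between PFNA and PFOS on each diet, between the diet controls, and as diet by compound interaction (panels), with 95% confidence intervals as bars and 3 arrays per group. All points are open, as 0 of the 6 probes passed in any of these comparisons, and every interval includes 0.

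The other Cyp3a genes with a probe, Cyp3a57, Cyp3a59 and Cyp3a16, are of the same cluster, and none was called in a single exposure. Cyp3a57 rose over both compounds and diets by 0.63 (SE 0.13; limma adjusted p = 0.0106), but from 1.94 to 2.45 in controls to 2.32 to 3.27 in exposed arrays, under the array median throughout. Cyp3a59, which lies beyond Cyp3a25, was above that median. It reached 8.54 and 8.90 in the first and second L-PFOS arrays and 8.95 and 8.83 in those of H-PFNA, but 7.04 and 7.53 in the third array of each group, against 7.02 to 8.01 in the controls. Its averaged difference of 0.60 did not pass (adjusted p = 0.182). The third arrays that were low for Cyp3a59 had Cyp3a11 and shared-probe signals within the exposed range.

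Of 20 listed regulators and redox partners of Cyp3a enzymes, 18 were measured, and 2 rose and 2 fell over both compounds and diets, where 2.99% of all probes were called higher and 2.02% lower. Nr1i2, which encodes PXR, rose by 0.37 (SE 0.10; limma adjusted p = 0.0410). Nr1i2 read 9.39, 9.23 and 9.07 in LFD, 8.99, 9.04 and 8.97 in HFD, 9.62, 9.72 and 9.28 in L-PFOS, 9.48, 9.73 and 9.55 in L-PFNA, 9.12, 9.31 and 9.64 in H-PFOS, and 9.76, 9.46 and 9.19 in H-PFNA. L-PFOS overlapped the control of its diet. L-PFNA, H-PFOS and H-PFNA were higher without overlap, as were 10.1%, 9.71% and 6.83% of all probes. In single exposures Nr1i2 was not called, with limma adjusted p between 0.333 and 0.484. Cyb5b, the outer mitochondrial membrane cytochrome b5, rose by 0.44 (adjusted p = 0.0227), with differences of 0.67 in L-PFOS, 0.80 in L-PFNA, 0.16 in H-PFOS and 0.13 in H-PFNA. Its HFD signal was 0.64 above LFD (adjusted p = 0.528). Cyb5a, the cytochrome b5 of the endoplasmic reticulum, differed by 0.0092 (adjusted p = 0.964). Rxra, the partner receptor, fell by 0.32 (adjusted p = 0.0314), and Ppargc1a, a coactivator of nuclear receptors, fell by 0.69 (adjusted p = 0.00313). Nr1i3, which encodes CAR, differed by -0.11 (adjusted p = 0.662). Single exposures called few of the 18. In L-PFNA 1 was higher (Cyb5b) and 1 lower (Ppargc1a), where 0.374% of all probes were called higher and 0.191% lower. In H-PFOS 1 was lower, where 0.389% of all probes were, and 0 were called in L-PFOS and H-PFNA. The H-PFOS call was Hsd11b1, an enzyme that regenerates active glucocorticoid, at -1.45 (adjusted p = 0.0448), which was also low in the third arrays of L-PFOS (8.30) and H-PFNA (8.83).

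Other known targets of PXR and CAR changed in the same livers. Of 26 measured genes of 32 listed, 14 were higher and 0 lower over both compounds and diets, beside 2.99% of all probes called higher, with a median difference of 0.62. In single exposures 7 were called higher in L-PFOS, 7 in L-PFNA, 3 in H-PFOS and 4 in H-PFNA, and 0 lower. Of all probes, 0.281%, 0.374%, 0.632% and 0.087% were called higher, in the same order. Cyp2b10, a classical CAR target, read 3.81 to 4.58 in the controls and 7.26 to 10.63 in the exposed arrays, and its averaged difference was 5.14 (SE 0.41; limma adjusted p = 2.18e-06). Cyp2c55, another P450 of this group, differed by 3.15 (adjusted p = 7.98e-06) and read 6.44 to 8.55 in the exposed arrays. Both genes covered a wider range of log2 signal among the exposed arrays than any of the 6 Cyp3a probes. Cyp2b10 read 9.59, 10.63 and 7.94 in L-PFOS and 10.63, 9.75 and 7.70 in H-PFNA, where Cyp3a11 stayed between 10.83 and 11.48.

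Because Cyp3a41 and Cyp3a44 are known as female-predominant and the animals were male, sex-biased liver genes outside the family were also counted. Of 18 measured female-predominant genes, 4 were higher and 1 lower over both compounds and diets, and of 21 male-predominant genes 2 were higher and 4 lower, where 2.99% of all probes were called higher and 2.02% lower. Several averages hold unlike exposures. Cyp2b9, also a CAR target, differed by 2.52 in L-PFOS and 2.23 in L-PFNA but by 0.22 in H-PFOS and 0.15 in H-PFNA. Its HFD mean was 11.72, and HFD against LFD was not called (limma adjusted p = 0.0912). Cyp17a1, a steroid hydroxylase, differed by -1.86 and -2.12 on the low-fat and by -0.23 and -0.69 on the high-fat diet. The diet by PFOS and diet by PFNA interactions called 0 of all probes, so a difference between diets is not shown for either gene. Hsd3b5, a steroid dehydrogenase, averaged -2.46, but its signal was 2.39 to 2.96 in H-PFOS, 3.83 in the third L-PFOS array and 4.10 in the third H-PFNA array, which stood apart on the first principal component, against 5.38 to 9.15 in the other exposed arrays. The transporter Slco1a1 averaged -1.96 and was likewise lowest in those 5 arrays, at 5.43 to 7.41 against 8.92 to 10.42. Cyp4a12a, a male-predominant fatty acid hydroxylase, was higher in each exposure, by 1.03 to 1.36.

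The livers carried their defining hepatocyte transcripts. The mean log2 signal over 11 measured markers was 12.13 to 12.27 in the controls and 11.90 to 12.23 in the exposed arrays. It was lower without overlap in L-PFNA (12.07 to 12.10, LFD 12.16 to 12.26) and in H-PFOS (11.90 to 12.04, HFD 12.13 to 12.27). L-PFOS and H-PFNA overlapped their controls. Of all probes, 10.1% in L-PFNA and 9.71% in H-PFOS were higher without overlap, and the share lower without overlap was not counted. Of the 11, 2 were called lower over both compounds and diets, where 2.02% of all probes were. Enterocyte markers were checked because the intestine also expresses Cyp3a genes. Of 6 markers 4 lay under the median signal, and the mean of the 6 was 6.21 to 6.54 in the controls and 6.10 to 6.40 in the exposed arrays. On the low-fat diet it did not overlap, at 6.42 to 6.54 in LFD, 6.18 to 6.26 in L-PFOS and 6.19 to 6.25 in L-PFNA, again with no share of all probes counted in this direction. On the high-fat diet exposed and control arrays overlapped. Markers of Kupffer cells, the resident macrophages of the liver, had a larger median difference on the low-fat than on the high-fat diet, with 0 of 8 called in any exposure. Their mean was 6.996 to 7.74 in LFD, 7.53 to 8.26 in L-PFOS and 7.86 to 8.23 in L-PFNA, and their median difference was 0.57 in L-PFOS and 0.78 in L-PFNA but 0.06 in H-PFOS and 0.05 in H-PFNA. Sinusoidal endothelial markers had median differences of 0.35, 0.42, -0.04 and 0.02 in the same order. Of these 7 markers, 1 was called higher over both compounds and diets, where 2.99% of all probes were. The shared Cyp3a probes differed by 0.82 to 0.87 on the low-fat and by 0.93 to 1.05 on the high-fat diet. The part of the hepatocyte, Kupffer and endothelial lists in the Cyp3a differences of either diet was not tested.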

How the data were processed

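Liver RNA from 18 mice was measured on biotin-labelled gene-level arrays, 3 in each of 6 groups. The deposited log2 values, 1 per probe and array for 34472 probes, were made by the authors with the software Transcriptome Analysis Console, its version not given, per the submitters' processing notes. No source used here gives the background correction, normalization or genome build. The log base was read from the range of the values, so every fold rests on it.

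Probes took their genes from the platform annotation: 23521 have 1 symbol, 1814 several and 9137 none. Probes of near-identical Cyp3a genes may read each other's RNA. All probes were tested, with 1 mean per group over 18 arrays, in limma 3.58.1 (R 4.3.3; 12 residual and 5.21 prior degrees of freedom; 13 contrasts), after tests on simulated data. Genes of other lists were read through their brightest probe of 1 gene. Some genes stand on more than 1 list, such as Cyp2b9, Aldh1a1, Acot3 and Cyp4a14, so the list counts are not independent. Named genes were up to 4 called members of a list, or those with the largest difference. The 3 probes of 1 named gene with the highest correlation to each Cyp3a probe were also named. Genes beyond that rule were named with their values known. Members and lists were chosen with earlier results of these data known. The alternatives were quantile normalization, a filter on signal, a trended prior, array weights, the compared groups alone, a replicate block and left-out arrays. The replicate number did not pair samples. Signals of arrays correlated at 0.975 to 0.991, and their number limits the precision.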

Additional observations from a re-analysis of the deposited data

How the results depend on the processing

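Over both compounds and diets, the count of 4 Cyp3a probes was 4 in all 24 alternatives, with differences of 1.04 to 1.27 for Cyp3a11, 0.82 to 0.99 for 17455127, 0.836 to 1.003 for 17455143 and 1.53 to 1.90 for Cyp3a44. The counts in single exposures moved. Fitting the compared groups alone gave 0 in L-PFOS, 3 in L-PFNA, 0 in H-PFOS and 0 in H-PFNA. Quantile normalization gave 1 in L-PFOS. Of all probes, the fit over 18 arrays called 134 in L-PFOS, 195 in L-PFNA, 352 in H-PFOS and 39 in H-PFNA, the compared groups alone 6, 194, 283 and 6, and the fit without the third L-PFOS and H-PFNA arrays 454, 593, 1011 and 148. In H-PFOS the count was 4 above the median signal, 4 with a trended prior, 4 with array weights and 4 without the third L-PFOS and H-PFNA arrays. Leaving out 1 array at a time gave 0 to 3 in L-PFOS, 0 to 3 in L-PFNA, 1 to 4 in H-PFOS and 1 to 4 in H-PFNA. The cause of these moves was not tested. In comparisons between compounds, between diets and of interactions the count was 0 under every alternative. Of 1218 alternative values of single probes, 949 were uncalled in both settings and had no call to lose, and 115 of these changed sign. Among the rest, 56 lost a call, 17 gained one and 0 reversed a called direction. All lost calls were in single exposures. There a call was kept in 4 of 13 alternatives (Cyp3a44 in L-PFOS) to 12 of 13 (17455143 in H-PFOS and H-PFNA).

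Replicate numbers are shared between groups, but the deviations of same-numbered arrays correlated at a median of -0.001 (-0.072 to 0.421 over 45 pairs, 3 over 0.1). With the replicate block the counts were 2 in L-PFOS, 4 in L-PFNA, 3 in H-PFOS and 2 in H-PFNA.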

Other observations

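Cyp3a11 is a gene of the pericentral zone of the liver lobule, and 3 further lists describe the livers in which it rose. Of 19 measured pericentral genes outside the family, 1 was higher and 2 were lower over both compounds and diets in limma's fit, with a median log2 difference of 0.03, where 2.99% of all probes were called higher and 2.02% lower. They were Aldh1a1, a retinaldehyde dehydrogenase, at 0.31 (adjusted p = 0.0189), the Wnt receptor partner Lgr5 at -0.69 (adjusted p = 0.0109) and Znrf3, a Wnt pathway ubiquitin ligase, at -0.37 (adjusted p = 0.00983). Aldh1a1 is also among the listed PXR and CAR targets. Of 20 measured targets of PPARA, the fatty acid receptor of the liver, 9 were higher and 0 lower over both compounds and diets, beside the same shares. In single exposures 7 of these 20 were called higher in H-PFOS, where 0.632% of all probes were, and 1 in L-PFOS, where 0.281% were, with 0 called in L-PFNA or H-PFNA, and limma's comparisons between compounds, between diets and of interactions called 0 of the 20. The third L-PFOS and H-PFNA arrays reached H-PFOS levels: Ehhadh, a peroxisomal oxidation enzyme, read 13.17 and 13.18 there and 12.91 to 13.26 in H-PFOS, against 11.28 to 11.70 in the other arrays of their groups. Without these 2 arrays, 510 of all probes were called between H-PFNA and H-PFOS and 765 between H-PFOS and L-PFOS, against 1 and 0 with them. The 2 arrays were picked because they lay with H-PFOS on the first principal component of the same data. Leaving them out therefore favours such calls, and no conclusion about H-PFOS is drawn from these counts. Of 26 measured acute phase genes, 0 were higher and 1 was lower over both compounds and diets, beside 2.99% and 2.02% of all probes. The gene called lower was the fibrinogen chain gene Fga at -0.27.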
